A study of Rattus norvegicus with 18 samples.

Results

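Total RNA libraries of neonate rat oligodendrocyte progenitor cells (OPCs) were compared between cells cultured on a stiff hydrogel and cells taken straight after sorting. The 6 libraries were chosen by title, 3 of stiff gel culture and 3 of primary cells, out of 18 in the series. All 18 came from rat OPCs enriched by magnetic sorting, aged or neonate, either primary or cultured on laminin-coated gels called soft or stiff. The stiff gel group held neonate OPCs grown on the stiff gel, and the labels name FGF and PDGF as growth factors of the culture. The primary group held sorted OPCs, whose neonate age is given only by the letter in each title, and the same growth text is repeated on their labels although their source is given as primary. Stiffness values, strain, sex and time in culture are not given in the sources used here. Time since sorting, culture, growth factors and gel differ together between the groups and cannot be told apart here. The labels do not tie the 3 libraries of a group to different animals. The p-values therefore reflect variation among libraries alone, part or all of which may be technical. That variation was estimated within groups over all 18 libraries, aged and soft gel ones included.

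OPCs are glial cells that divide under growth factors such as PDGF, which they sense through the receptor PDGFRA, and that leave the cell cycle to become oligodendrocytes. Differentiation passes through a committed stage marked by genes such as Bcas1, Enpp6 and Gpr17, and ends with the genes of the myelin sheath, among them Mbp and Mag. Immediate early genes such as Fos and Egr1 encode transcription factors that are induced within minutes by growth factors, activity or handling of tissue, without new protein synthesis.

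Levels are in scaled TPM: the TPM of a gene, its share of all transcripts after correction for length, over a scaling factor of its library. A gene was called where limma on log2(scaled TPM + 1), fitted with 6 group means over all 18 libraries, gave a Benjamini-Hochberg adjusted p under 0.05. All adjusted p-values below come from that fit over the 15144 genes tested unless another is named, and each difference is stiff gel minus primary on that log2 scale. Depth was low. Stiff gel libraries held an estimated 25726 to 36110 read pairs outside ribosomal RNA and primary libraries 33689 to 64930, and for a 2 kb transcript a single pair amounted to 5.35 to 7.72 scaled TPM in stiff gel libraries and to 2.87 to 5.41 in primary ones. Ribosomal RNA took 80.5% to 88.8% of the TPM in stiff gel libraries and 63.6% to 67.4% in primary ones, without overlap. The part of this gap in the results below was not tested, and counts with TPM scaled outside ribosomal RNA are given further down. In these bulk libraries fewer cells of a type and less RNA per cell cannot be told apart.

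The OPC label was checked against markers of these cells. Pdgfra, the PDGF receptor, stood at 22.2, 22.4 and 51.2 scaled TPM in stiff gel libraries 1, 2 and 3 and at 53.7, 42.6 and 74.7 in primary libraries 1, 2 and 3. Cspg4, the NG2 proteoglycan of progenitors, stood at 7.66, 3.26 and 22.2 in stiff gel and at 22.7, 30.4 and 35.8 in primary libraries. Pdgfra overlapped between the groups, Cspg4 was lower in every stiff gel library than in any primary one, and neither was called (differences of -0.89 ± 0.91 and -1.67 ± 0.83, SE, adjusted p = 1 for both). Olig1, a transcription factor of the lineage, ranged from 249 to 758 in stiff gel and from 258 to 381 in primary libraries, and Olig2, its partner, from 37.4 to 99.4 and from 46.1 to 49. Both overlapped. All 22 OPC genes found in the files were tested and none was at 0 in all libraries of either group, so OPC markers were present in both groups.

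The first principal component of the 907 best measured genes, with 33.3% of the variance, placed all 3 stiff gel libraries between 9.65 and 15.5 and all 3 primary libraries between -22.9 and -12.3. Neonate soft gel libraries, shown for reference, lay between 0.07 and 10.1. Over the same genes, Pearson correlations were 0.788 to 0.797 among stiff gel libraries, 0.782 to 0.812 among primary libraries and 0.596 to 0.726 between the groups. Libraries were therefore closer to their own group than to the other.

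**Figure D1:**
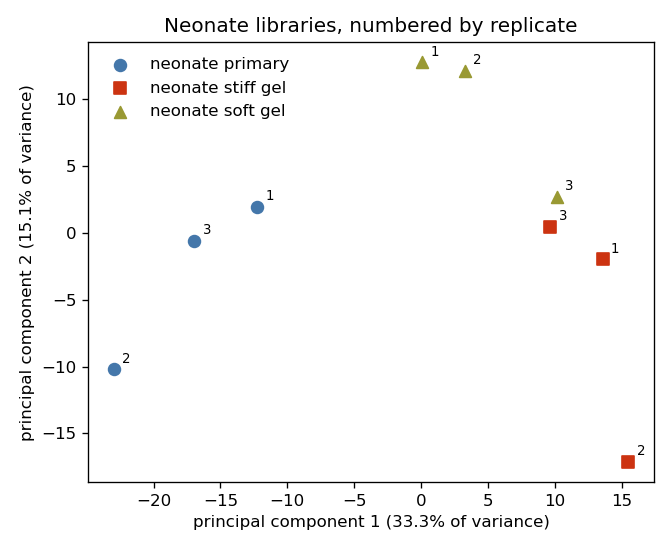
Principal components 1 and 2 (percent of variance on the axes) of the 9 neonate libraries over 907 genes, each point 1 library numbered by replicate, coloured by group. Stiff gel (9.65 to 15.5) and primary libraries (-22.9 to -12.3) do not overlap on component 1, and soft gel replicate 3 lies closest to the stiff gel libraries.

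Between stiff gel culture and primary cells 10 of 15144 genes were called (0.066%), 6 higher in stiff gel (0.0396%) and 4 lower (0.0264%), while 724 had an unadjusted p under 0.05. Genes higher in stiff gel included Sirt2 and Cldn11 of the oligodendrocyte, the glycolytic enzyme gene Gpi, the ferritin heavy chain gene Fth1, the ribosomal protein gene Rpl13 and the 5.8S ribosomal RNA entry. Lower genes were Fos, the chemokine gene Ccl3, the haemoglobin gene Hba1 and Ttr, which encodes transthyretin, a product of the choroid plexus. The median difference of all genes tested was 0. Leaving out 1 library gave 4 calls without stiff gel replicate 1, 5 without stiff gel replicate 2, 5 without primary replicate 2 and 6 without primary replicate 3. A fit of the 9 neonate libraries alone called 35 genes, of which 2 (Cldn11 and Hba1) were among the 10. Ldha (adjusted p = 0.00531), Dlx1 (0.0219), Gfap (0.0403), Gstp1 (0.0403), Jun (0.0403) and Sox5 (0.0436), described below with p-values of the fit of 18, were called in that fit.

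Sirt2, a deacetylase abundant in cells that form myelin (rn6 chromosome 1, 86949413 to 86971954), stood at 506, 384 and 378 scaled TPM in stiff gel libraries and at 25.2, 26.3 and 30.7 in primary libraries. Every stiff gel library was far above every primary one, and the groups were tight within themselves. The difference was 3.89 ± 0.64 (SE, adjusted p = 0.00726). Cldn11, the tight junction protein of the myelin sheath (chromosome 2, 115823541 to 115836846), stood at 265, 298 and 69.8 in stiff gel libraries against 2.46, 0 and 0 in primary libraries. Stiff gel replicate 3 held the lowest of the cultured values, still well above all primary libraries (difference 6.88 ± 1.32, adjusted p = 0.0341). In neonate soft gel libraries 1, 2 and 3 Sirt2 stood at 49.7, 108 and 456 and Cldn11 at 6.99, 13.7 and 45.3, so only soft gel replicate 3 reached the stiff gel range of Sirt2 and none reached that of Cldn11. Stiff gel minus soft gel was not called for either (adjusted p = 1 for both). The call of Sirt2 was lost without stiff gel replicate 1 (adjusted p = 0.0789), and that of Cldn11 without stiff gel replicate 1 (0.204) or 2 (0.258) or primary replicate 2 (0.175) or 3 (0.127).

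Gpi, which turns glucose-6-phosphate into fructose-6-phosphate (chromosome 1, 90063411 to 90091287), stood at 196, 248 and 132 in stiff gel libraries and at 27.8, 5.23 and 18.1 in primary libraries (difference 3.63 ± 0.63, adjusted p = 0.0122). Soft gel libraries gave 261, 184 and 99.5, a range that overlapped the stiff gel one. Rpl13, a protein of the large ribosomal subunit annotated at 2 loci, stood at 2649, 3992 and 3766 in stiff gel and at 1302, 530 and 603 in primary libraries (difference 2.19 ± 0.38, adjusted p = 0.0122). Both genes were higher in every cultured library than in any primary one, on soft as on stiff gel. Fth1, which stores iron (chromosome 1, 226030940 to 226033228), stood at 3553, 3703 and 465 in stiff gel libraries and at 145, 160 and 360 in primary libraries. Its groups did not overlap, yet stiff gel replicate 3 lay nearer the highest primary library than the other stiff gel libraries (difference 3.17 ± 0.62, adjusted p = 0.039). The 5.8S entry Rn5-8s, annotated at 7 loci and overlapping the precursor Rn45s on the same strand, was higher in all stiff gel libraries by 2.34 ± 0.45 (adjusted p = 0.0341), alongside the higher ribosomal RNA share given above. Calls of these genes were lost with 1 library left out: Gpi without stiff gel replicate 1 or 2 or primary replicate 2 (adjusted p = 0.0875, 0.128 and 0.16), Rpl13 without stiff gel replicate 2 or 3 or primary replicate 2 or 3 (0.0723 to 0.175), Fth1 without stiff gel or primary replicate 1 or 2 (0.161 to 0.324), and the 5.8S entry whichever of the 6 was left out (0.0717 to 0.275).

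Fos, an immediate early transcription factor (chromosome 6, 109300433 to 109303299), stood at 15.6, 35.5 and 0 scaled TPM in stiff gel libraries and at 801, 1108 and 1031 in primary libraries. All primary libraries were high and all stiff gel libraries low, 1 of them listed at 0, and this was the smallest adjusted p of the comparison (difference -6.84 ± 0.85, adjusted p = 0.000208). It did not rest on single reads in primary cells, where the estimate was 163 to 221 read pairs, against 0 to 3.65 pairs in stiff gel libraries. Soft gel libraries gave 21.9, 17.3 and 66.3 and were lower than the same primary libraries, which both culture comparisons share (soft gel minus primary -5.00, adjusted p = 0.024, 1 of 6 genes called on soft gel, 0.0396%). The call stood with any 1 of the 6 libraries left out.

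Ttr, which carries thyroid hormone and retinol (chromosome 18, 15532964 to 15540177), was listed at 0 in all stiff gel libraries and at 561, 272 and 1209 in primary libraries (adjusted p = 0.00048). Hba1, the haemoglobin alpha chain of red cells (chromosome 10, 15602794 to 15603649), was likewise listed at 0 in stiff gel and at 99.4, 60.7 and 56.2 in primary libraries (adjusted p = 0.0236). It overlaps Hba2 on the same strand, so the copies cannot be told apart. Both genes mark cells other than OPCs. On the list of 17 blood and choroid plexus genes, 12 were tested, 9 were at 0 in all stiff gel libraries, and the summed level was 30.5 to 44.6 in stiff gel against 435 to 1308 in primary libraries. Most of the primary sums came from Ttr and Hba1 themselves. Other choroid plexus genes were at or near 0 in primary libraries too (Folr1 at 0 in all, Clic6 at 5, 0 and 0). Of that list 3 genes were lower in every stiff gel library (Ttr, Hba1 and Alas2, the haem synthesis enzyme of red cells) and 0 were higher. Soft gel libraries gave 0, 24 and 0 for Ttr and 0 in all for Hba1. The call of Ttr stood with any 1 of the 6 libraries left out, and that of Hba1 was lost whichever was left out (adjusted p = 0.0723 to 0.136).

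Ccl3, a chemokine of microglia and other phagocytes (chromosome 10, 70869516 to 70871066), was listed at 0 in all stiff gel libraries and at 44.6, 106 and 78.4 in primary libraries (adjusted p = 0.000736). The primary values rested on an estimated 5.85 to 7.41 read pairs each. Its neighbour Ccl4 was at 29.9, 0 and 0 in stiff gel and at 20.1, 0 and 200 in primary libraries, so the groups overlapped. Soft gel libraries gave 0, 0 and 33.9 for Ccl3. The call stood with any 1 of the 6 libraries left out.

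**Figure D2:**
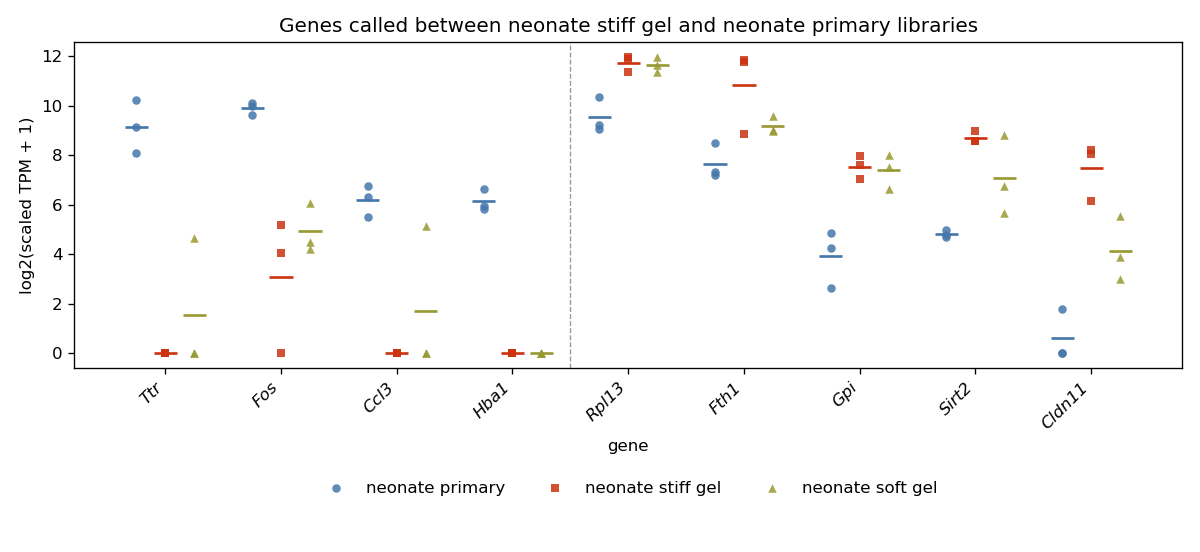
Level of 9 of the 10 called genes (y axis, log2(scaled TPM + 1)) in each neonate library, with points for libraries and bars for group means, and the 5.8S ribosomal RNA entry left out because it lies far above the axis. Primary points lie above all stiff gel points for the 4 genes left of the dashed line and below them for the 5 on the right.

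Because few genes passed the test, the gene lists below are described by how many members had all stiff gel libraries on 1 side of all primary libraries. Over all genes tested this held for 592 higher (3.91%) and 917 lower genes (6.06%). The share rises with the level: among the 3586 genes with a mean of at least 10 scaled TPM over the 6 libraries it was 11.2% higher and 10.5% lower, among the 655 with a mean of at least 50 it was 21.8% and 11.9%, and among the 120 genes with a mean of at least 200 it was 40.8% and 10.8%. Members named below that were not called, other than a set of marker genes named whatever their values, were chosen after their values were seen.

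Genes of the committed stage of oligodendrocytes were the list with the largest share of higher members among the 46 lists. Of 14 tested, 9 were higher in every stiff gel library and 0 lower, with a median difference of 1.68, and 8 of the 11 with a mean of at least 10 scaled TPM were higher. Bcas1, which marks oligodendrocytes that have begun to myelinate, stood at 229, 222 and 291 scaled TPM in stiff gel against 21.9, 7.93 and 31.9 in primary libraries (difference 3.7 ± 0.88, adjusted p = 0.144). Nfasc, an adhesion molecule of paranodes and axons, stood at 90.8, 106 and 56.8 against 14.3, 11.3 and 9.05. Bmp4 and Enpp6, both of newly formed oligodendrocytes, were listed at 0 in all primary libraries and ran from 8.97 to 61.2 and from 4.94 to 8.75 in stiff gel. The levels of these genes did not overlap between the groups, although of the 14 Sirt2 alone was called. Gpr17, a receptor of the committed stage, stood at 93.4, 96.4 and 78.9 against 54.1, 37.9 and 12.5. Myrf, the transcription factor that switches on myelin genes, stood at 45.4, 42.5 and 52.9 against 19.3, 20.5 and 9.94, and Fyn, a kinase that relays adhesion signals, at 143, 148 and 145 against 28, 54.2 and 30.4. The summed level of the list was 1723 to 2705 in stiff gel and 569 to 665 in primary libraries, without overlap.

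Myelin genes followed in 6 of 24 tested members, with 0 lower, a median difference of 0.11, and 11 members at 0 in all libraries of each group. Mbp, myelin basic protein, stood at 202, 211 and 102 in stiff gel and at 6.38, 21.6 and 0 in primary libraries (difference 4.9 ± 1.04, adjusted p = 0.0603). Cnp, a phosphodiesterase of non-compact myelin, stood at 63.7, 67.6 and 88.7 against 0.4, 11.7 and 7.31 (difference 3.8 ± 1.03, adjusted p = 0.269). Stiff gel libraries were higher in both genes, without overlap and without passing the test. Mag, an adhesion molecule of the inner myelin layer, and Ugt8, which makes galactolipids, were listed at 0 in all primary libraries and ranged from 16.6 to 26 and from 5.81 to 7.65 in stiff gel. Mobp, a gene of compact myelin, was listed at 0 in all 6 libraries. Mog, a protein of the outermost sheath, went the other way with 199, 129 and 109 in stiff gel against 316, 168 and 229 in primary libraries. Its groups overlapped, and it shares its locus with Zfp57 on the opposite strand, whose reads cannot be told apart from its own.

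Early lineage genes gave mixed values. Of the 22 OPC genes 6 were higher in every stiff gel library and 1, Cspg4, lower, with a median difference of 0.19. Sox10, the transcription factor kept from progenitor to oligodendrocyte, stood at 199, 251 and 347 in stiff gel and at 91.3, 104 and 82.7 in primary libraries (difference 1.48 ± 0.75, adjusted p = 1). Nkx2-2, which represses Pdgfra during differentiation, stood at 47.7, 47.2 and 86.7 against 2.49, 0 and 9.94 (difference 4.13 ± 1.32, adjusted p = 0.483). Both were higher without overlap. Bcan, a proteoglycan of the matrix around neural cells, stood at 195, 177 and 140 against 50.8, 35.9 and 43.2. Ptprz1, a receptor phosphatase of progenitors, stood at 63.2, 25.6 and 64.9 against 69.9, 48 and 34.4 and overlapped. Sox5, a factor that holds back differentiation, was listed at 0 in all stiff gel libraries and at 30.1, 15 and 12.7 in primary ones. Among 22 transcription factors of the lineage 5 were higher and 5 lower in every stiff gel library.

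**Figure D3:**
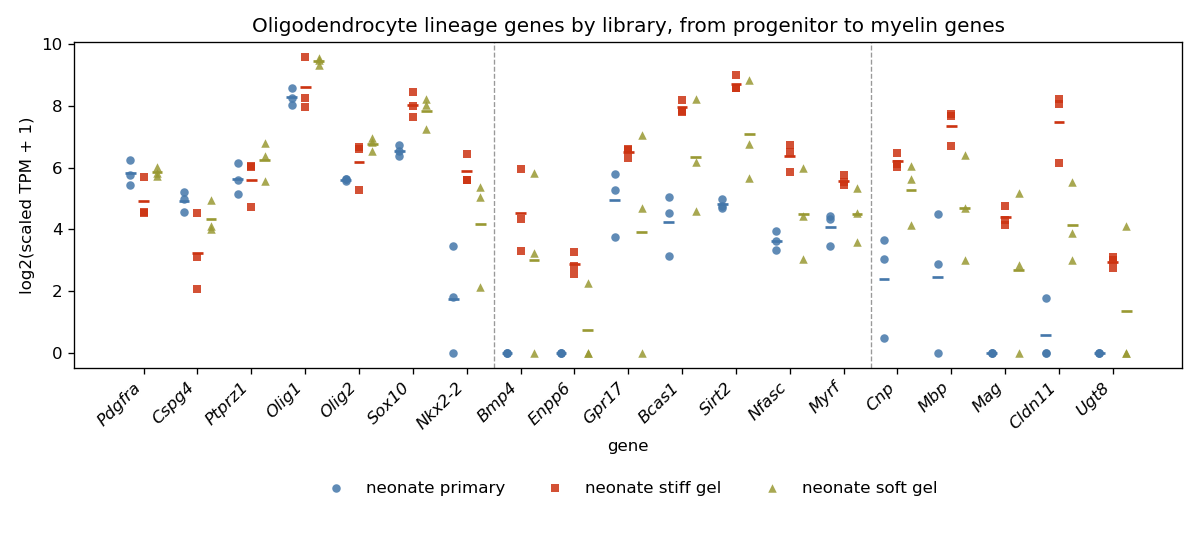
Levels (y axis, log2(scaled TPM + 1)) of 19 oligodendrocyte lineage genes in each neonate library, with bars for group means, ordered from progenitor genes to committed and myelin genes between the dashed lines. Stiff gel points lie above primary points for all genes right of the first dashed line, while Pdgfra, Ptprz1, Olig1 and Olig2 overlap. The genes shown are a selection from longer lists, on which 5 of 14 committed and 18 of 24 myelin genes tested overlapped between the groups. Mog and Mobp, which were not higher in stiff gel, are not shown.

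Soft gel values are given beside these, with the same primary libraries as reference. Bcas1 stood at 22.9, 71.8 and 298 in soft gel libraries 1, 2 and 3, Mbp at 7.1, 24.6 and 84, and Mag at 0, 6.21 and 35.4. Soft gel replicate 3 held the highest value of its group for each of these genes and replicate 1 the lowest. Stiff gel minus soft gel gave 0 called genes in limma (0%), with 438 at an unadjusted p under 0.05 and 8 called when the 9 neonate libraries were fitted alone. For Bcas1, Mbp and Mag the comparison with soft gel thus rests on soft gel values that varied within the group. Over the 907 genes used above, correlations among soft gel libraries were 0.748 to 0.841, beside 0.788 to 0.797 among stiff gel libraries.

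A pair of opposed entries at the second copy of the miR-219 locus was measured as well. miR-219 is a microRNA abundant in oligodendrocytes, known for repressing progenitor genes during differentiation. The 3 mature sequences below are from RefSeq (GRCr8), with the seed (bases 2 to 8, which pairs with targets) in capitals. They are shown because the 1 microRNA entry that was higher without overlap holds the first of them.

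rno-miR-219b: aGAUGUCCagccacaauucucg
rno-miR-219a-2-3p: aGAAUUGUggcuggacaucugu
rno-miR-219a-5p: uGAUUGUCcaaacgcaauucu

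The 3 seeds differ from each other. Mir2964, the entry that yields miR-219b (rn6 chromosome 3, 8407427 to 8407526), stood at 456, 579 and 803 scaled TPM in stiff gel and at 24.5, 11.2 and 25.5 in primary libraries (difference 4.89 ± 1.19, adjusted p = 0.168). Every stiff gel library was higher, without passing the test. The entry covers Mir219-2 on the opposite strand (8407430 to 8407525), so reads of the hairpins cannot be told apart, and libraries of total RNA on a short entry do not measure mature microRNAs. Of 87 microRNA entries tested 1, this entry, was higher without overlap and 1 lower. Both shares are below those of all genes tested (3.91% higher and 6.06% lower), so nothing particular to microRNAs is read from them. Mir2964 rested on an estimated 4.26, 3.75 and 7.22 read pairs in stiff gel and 0.427, 0.103 and 0.293 in primary libraries. The lower entry was Mir219-1, the other copy, at 103, 214 and 123 in stiff gel against 236, 375 and 320 in primary libraries. It rested on an estimated 1.06 to 1.52 pairs in stiff gel and 3.82 to 4.51 in primary libraries. In soft gel libraries Mir2964 stood at 3.55, 36 and 150.

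Immediate early genes beyond Fos had lower values in stiff gel. Of 30 tested, Fos among them, 12 were lower and 1 higher in every stiff gel library, with a median difference of -1.89. Of the 12 with a mean of at least 10 scaled TPM, Fos again among them, 9 were lower. The summed level, Fos included, was 209 to 416 in stiff gel and 1562 to 2172 in primary libraries. Fos by itself made up 801 to 1108 of the primary sums. Fosb, a partner of Jun, was listed at 0 in all stiff gel libraries and at 35.2, 40.9 and 30.8 in primary ones (adjusted p = 0.0729). Btg2, which slows the cell cycle, stood at 0, 4.48 and 4.33 against 81.6, 96.9 and 74.5 (difference -4.78 ± 0.98, adjusted p = 0.054). Egr1, a zinc finger factor, stood at 59.8, 36.2 and 17 against 199, 303 and 188 (difference -2.71 ± 1.12, adjusted p = 0.803). Each of these was lower in all stiff gel libraries, and none but Fos was called in the fit of 18 libraries. Ier2, a small nuclear protein, stood at 12.7, 34.1 and 0 against 74.1, 265 and 157. Jun, which pairs with Fos in the AP-1 factor, stood at 13.1, 11.9 and 13.9 against 56, 41.4 and 53.8, and Jund at 45.8, 48.4 and 54.9 against 103, 90.6 and 93.5. Myc, a growth regulator, was the member that was higher, at 12.2, 24.1 and 11.6 against 3.06, 4.48 and 0.

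**Figure D4:**
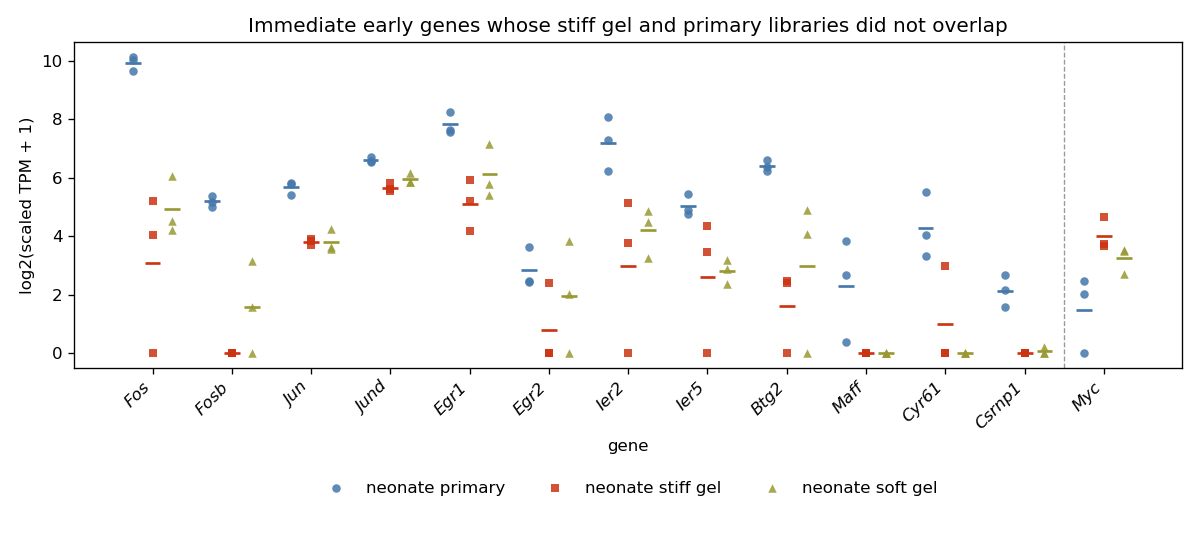
Levels (y axis, log2(scaled TPM + 1)) in each neonate library of the 13 immediate early genes whose stiff gel and primary libraries did not overlap, with bars for group means. Primary points lie above stiff gel points for the 12 genes left of the dashed line and below them for Myc.

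Some promoters of these genes carry known response elements. The 3 printed were picked because they hold such a match and their genes were lower in stiff gel without overlap. They are the 250 bases before the annotated start, from RefSeq (GRCr8), with matches in capitals to the CArG box, which serum response factor binds (Egr1), or to the cyclic AMP response element TGACGTCA, its own reverse complement (Ier2 and Btg2).

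Egr1 promoter (chr18:26736828-26737077, plus strand): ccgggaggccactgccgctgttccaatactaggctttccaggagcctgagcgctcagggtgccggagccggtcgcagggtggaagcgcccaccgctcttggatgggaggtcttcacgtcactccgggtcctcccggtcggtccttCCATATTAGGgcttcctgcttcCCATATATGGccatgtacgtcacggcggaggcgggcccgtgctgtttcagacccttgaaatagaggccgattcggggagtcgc
Ier2 promoter (chr19:40399123-40399372, plus strand): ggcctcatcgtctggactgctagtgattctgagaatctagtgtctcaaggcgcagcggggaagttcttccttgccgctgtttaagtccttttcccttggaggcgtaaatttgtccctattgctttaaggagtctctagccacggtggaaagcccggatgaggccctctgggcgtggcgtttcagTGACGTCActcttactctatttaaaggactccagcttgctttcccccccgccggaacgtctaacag
Btg2 promoter (chr13:48087691-48087940, minus strand): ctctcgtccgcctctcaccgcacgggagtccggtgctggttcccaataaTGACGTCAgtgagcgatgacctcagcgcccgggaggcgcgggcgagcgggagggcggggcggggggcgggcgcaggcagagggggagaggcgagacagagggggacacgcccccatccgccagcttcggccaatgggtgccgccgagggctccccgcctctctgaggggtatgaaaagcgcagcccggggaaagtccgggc

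In Egr1 the 2 CArG matches began 105 and 83 bases before the start, and the response element lay 66 bases before the start in Ier2 and 201 in Btg2. On either strand, TGACGTCA was present in 531 of 33469 promoters of this length (1.59%) and the CArG box in 501 (1.5%). Of the 30 immediate early genes 19 had an entry, of which 5 held the response element (Jund, Ier2, Btg2, Dusp1 and Maff) and 4 the CArG box (Egr1, Egr2, Klf6 and Zfp36). Among the 9 matched genes that were lower in every stiff gel library, 4 held the first and 2 the other. Klf6, Zfp36 and Dusp1 overlapped between the groups. A match describes these letters alone and shows no binding.

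Markers of other cell types were counted in the same way. Of 29 microglial genes tested, 8 were lower in every stiff gel library and 0 higher (median difference -1.17), 19 were at 0 in all stiff gel libraries, and the summed level was 56.6 to 104 in stiff gel against 225 to 356 in primary libraries. Of the 4 with a mean of at least 10 scaled TPM 2 were lower. With all libraries thinned to equal estimated pairs 4 of the 29 were lower and 0 higher, beside 602 lower and 401 higher of 15138 genes. P2ry12, the purine receptor of resting microglia, stood at 1.8, 0 and 0 in stiff gel and at 38.7, 48.2 and 64.8 in primary libraries (difference -5.16 ± 1.06, adjusted p = 0.054). Cx3cr1, the fractalkine receptor, was listed at 0 in all stiff gel libraries and at 17, 7.97 and 19.2 in primary ones, and Csf1r, the receptor of CSF1, stood at 4.8, 0 and 8.71 against 20.7, 13.7 and 33.3. All 3 receptors were lower in every stiff gel library than in any primary one. Aif1, Tyrobp and C1qa were at 0 in all stiff gel libraries and above 0 in 1 primary library each, and C3, a complement gene, likewise. The lower microglial markers moved with Ccl3 and the immediate early genes, and their part in those results was not tested.

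Neuronal genes gave 5 lower and 1 higher of 26 tested, with a median difference of -0.81. Dlx1 and Dlx2, homeobox factors of forebrain interneuron precursors and of early progenitors there, had no overlap. Dlx1 stood at 55.4, 62.5 and 44.1 in stiff gel and at 379, 432 and 398 in primary libraries (difference -2.89 ± 0.75, adjusted p = 0.228), and Dlx2 at 5.94, 28.4 and 15 against 246, 129 and 120. Soft gel libraries were at 23.1, 15.1 and 33.2 for Dlx1, also below all primary libraries. Dcx, of migrating neuroblasts, stood at 26.1, 12.3 and 20.3 against 43.6, 21.5 and 41.4 and overlapped. The astrocyte list went both ways, with 3 higher and 2 lower of 22. After thinning to equal pairs 5 were higher and 0 lower, and with TPM scaled outside ribosomal RNA 3 were higher and 3 lower. Gfap, the intermediate filament of astrocytes, stood at 106, 157 and 72.8 in stiff gel and at 5.13, 3.92 and 3.16 in primary libraries (difference 4.43 ± 1.09, adjusted p = 0.168), while the gap junction gene Gja1 stood at 10.1, 20.9 and 2.76 against 41.3, 34.9 and 52.7. Vim, an intermediate filament of immature glia, stood at 206, 235 and 65.1 against 112, 111 and 149 and overlapped. Pecam1, of blood vessel lining, was listed at 0 in all stiff gel libraries and at 6.63, 15.5 and 0 in primary ones. Of 21 endothelial and mural genes 4 were lower and 0 higher, and after thinning to equal pairs 2 were lower and 0 higher.

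Genes of division had lower values in part. Of 31 genes of DNA synthesis 7 were lower and 0 higher (median difference -0.93), of 32 genes of G2 and mitosis 4 were lower and 0 higher (-0.74), and of 18 histone genes 5 were lower and 0 higher. Gins2, of the replication helicase, stood at 130, 156 and 73.8 in stiff gel and at 564, 709 and 575 in primary libraries (difference -2.41 ± 0.50, adjusted p = 0.054). Ccna2, cyclin A, stood at 0, 4.99 and 10.4 against 27.1, 23.6 and 23.3. Both were lower without overlap. Mki67 and Top2a, common markers of cycling cells, were not lower: Mki67 stood at 4.31, 5.72 and 12.8 against 7.73, 9.33 and 4.23, and Top2a at 19.2, 28.3 and 14.5 against 13.7, 11 and 26.1, with differences of 0.02 ± 0.85 and 0.31 ± 1.05 (adjusted p = 1 for both). Cdkn1c, an inhibitor of cyclin-dependent kinases, stood at 45.9, 61.8 and 33.4 in stiff gel and at 0, 0 and 3.85 in primary libraries (difference 4.78 ± 1.07, adjusted p = 0.0939), and Cdkn1a, another, at 9.93, 16.2 and 8.78 against 0.606, 0 and 0. Among 34 growth factor and receptor genes of OPCs, 7 were lower and 0 higher, among them Cxcr4, the CXCL12 receptor, at 0.334, 7.5 and 0 against 17.1, 54.1 and 45.9. Of the 11 with a mean of at least 10 scaled TPM only 1 was lower, a share near the 10.5% of all genes at that level. Nothing particular to this list is therefore read from the count.

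**Figure D5:**
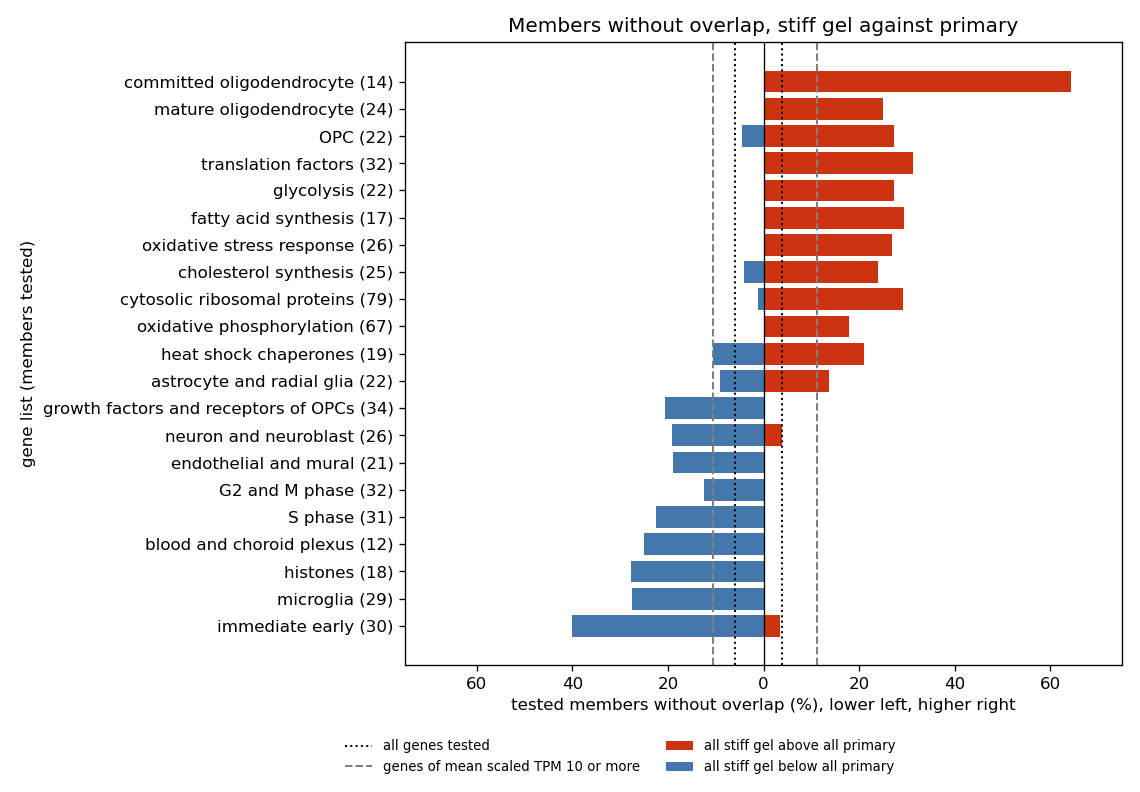
Share of the tested members of 21 gene lists (y axis, members tested in parentheses) whose stiff gel libraries all lay below (blue, left) or above (red, right) all primary libraries, in percent. Dotted lines give the share among all genes tested (6.06% lower and 3.91% higher) and dashed lines that among genes with a mean of at least 10 scaled TPM (10.5% and 11.2%), and committed oligodendrocyte and immediate early genes reach furthest from them.

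The lists of glycolysis, oxidative phosphorylation, cholesterol synthesis and fatty acid synthesis each had more members higher than lower without overlap, though most members overlapped and Gpi alone was called. On unscaled TPM this order turned for the first 3 of them, as given with the ribosomal proteins. Glycolysis had 6 of 22 tested genes higher and 0 lower (median difference 0.64). Ldha, lactate dehydrogenase, stood at 100, 95.5 and 76.9 in stiff gel and at 5.8, 6.61 and 5.31 in primary libraries (difference 3.73 ± 1.06, adjusted p = 0.326), and soft gel libraries were at 181, 118 and 117. Aldoa, aldolase, stood at 273, 264 and 97.8 against 46, 38.2 and 84.5. Neither overlapped between the groups. Neither was called in the fit of all 18 libraries, while the fit of the 9 neonate libraries alone called Ldha (limma, adjusted p = 0.00531). Oxidative phosphorylation had 12 of 67 higher and 0 lower (0.63), a share of higher members below the 21.8% of the 655 genes with a mean of at least 50 scaled TPM, so nothing particular to the list is read from it, and the shares of the 3 other metabolic lists are to be read beside the same value. It included Cox4i1 of cytochrome oxidase at 420, 164 and 230 against 35.3, 57.5 and 62.3. Cholesterol synthesis had 6 of 25 higher and 1 lower (0.78), with Fdps, which makes farnesyl diphosphate, at 333, 478 and 738 against 120, 95.5 and 144. Fatty acid synthesis had 5 of 17 higher and 0 lower (0.91), with the desaturase gene Scd2 at 454, 290 and 278 against 106, 95.9 and 134. The oxidative stress list had 7 of 26 higher and 0 lower (1.49). Gstp1, a glutathione transferase, stood at 293, 392 and 173 against 15, 25.5 and 11, and Nqo1, a quinone reductase, at 46.1, 38 and 15 against 1, 0 and 0.

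Ribosomal protein genes had 23 of 79 higher and 1 lower (median difference 0.66), but this share is below the 40.8% of genes with a mean of at least 200 scaled TPM, a level near that of many members, so nothing particular to them is read from it. Translation factors had 10 of 32 higher and 0 lower (0.50). Directions of these lists depended on the scaling: with unscaled TPM, whose all-gene median shifted to -0.64, 0 ribosomal protein genes were higher and 19 lower, translation factors gave 0 and 8, oxidative phosphorylation 0 and 9, cholesterol synthesis 0 and 4, glycolysis 2 and 3, and OPC genes 1 and 8. Committed oligodendrocyte genes had 5 higher and 0 lower and myelin genes 6 and 1 on that scale, beside 90 higher and 2777 lower among all genes. Immediate early genes had 17 lower and 1 higher there. With TPM scaled outside ribosomal RNA, ribosomal protein genes gave 13 higher and 2 lower, and committed oligodendrocyte genes 9 and 0. Immediate early genes gave 1 higher and 13 lower on that scale, beside 426 higher and 1180 lower among all genes.

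Genes of mechanical sensing mostly had low levels. Of 25 targets of YAP and TAZ, factors that respond to stiffness, 0 were higher and 2 lower, with a median difference of -0.92. Among all genes tested 3.91% were higher and 6.06% lower. Only 5 of the 25 targets had a mean of at least 10 scaled TPM, and 2 of these were lower. Yap1 itself stood at 7.13, 0 and 0 in stiff gel and at 29.3, 3.6 and 11.2 in primary libraries. Piezo1, a stretch-gated channel whose gene overlaps Ctu2 on the opposite strand, stood at 1.15, 2.78 and 2.3 against 0.483, 6.24 and 2.69. Its values rested on few estimated read pairs, 0.88, 1.48 and 1.7 in stiff gel and 0.69, 4.73 and 2.54 in primary libraries. Both overlapped between the groups, and neither was called (differences of -2.57 ± 1.41 and -0.19 ± 0.93, adjusted p = 1 for both). Of 15 mechanosensitive channel genes 1 was higher and 1 lower, and 0 had a mean of at least 10 scaled TPM. Nothing particular to either list is read from these counts.

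Whether the effect of stiff gel culture differed with age was tested by its difference between aged and neonate cells, which share no library. Of 15144 genes 13 were called (0.0858%), 1 higher and 12 lower in aged minus neonate effect. Gpi, called in neonate cells, was among them: in aged cells it stood at 9.25, 23.2 and 12.7 in stiff gel and at 35.6, 53.7 and 49.6 in primary libraries, the opposite order (difference of effects -5.26 ± 0.90, adjusted p = 0.00971). The 5.8S entry was the other called gene among them (-3.23 ± 0.64). For the other 8 called genes the difference between ages was not called. Of these Ccl3 (5.94 ± 1.24, adjusted p = 0.0513) and Rpl13 (-2.56 ± 0.54, adjusted p = 0.0595) lay just over the threshold. Aged stiff gel against aged primary libraries gave 182 called genes (1.2%). Fos was among them at -4.23 (adjusted p = 0.00955), Ttr and Hba1 were called there as lower, and Ccl3 differed there by -0.25.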

How the data were processed

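The 6 libraries compared, 3 of neonate OPCs on stiff gel and 3 of neonate primary OPCs, are from a series of 18 total RNA libraries made with a stranded kit for picogram inputs, per the labels' protocols. The authors deposited transcript tables with TPM, FPKM and coverage as other values inside a text attribute. Per the file headers StringTie 1.3.2d made them on annotated transcripts only (UCSC, rn6) and without a strand setting. Trimmomatic, HISAT2 and Bowtie are also named in the submitters' processing notes, with no role.

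TPM was summed over the transcripts of each gene name. Of 17337 names 14821 matched a symbol and 2125 a synonym in RefSeq tables of a later build, which gave the sequences. Library factors were medians of ratios over 1644 genes detected everywhere. A gene entered the test when its TPM reached 1 in 3 or more libraries, and log2(scaled TPM + 1) was then modelled by group in limma 3.58.1 (R 4.3.3, variance trend, two-sided, Benjamini-Hochberg, 0.05). The procedure was tested on simulated data. Pairs were estimated from coverage, taking 300 bases for each. Of the tested values in the 6 libraries 49.6% were 0.

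The naming rule took at most 12 called genes in each direction by size of difference (mean of 5 or more in the higher group, no overlap), at most 4 called genes per list, and a set of markers regardless of values; 1 of these genes is not reported here. The members and the 46 gene lists were chosen with earlier results of these data known. Alternatives changed the pseudocount (0.1), the filter (none, or TPM of 5), the scaling (none, quantile), the method (voom on estimated pairs, array weights, replicate block) or the libraries fitted (only the 6, only the 9 neonate ones, 3 aged libraries of unusually many detected genes removed, each of the 6 removed in turn). Scaling outside ribosomal RNA and thinning to 22193 pairs were added after the data were seen. File headers carry other numbers than the titles, so numbers were not used to pair libraries.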

Additional observations from a re-analysis of the deposited data

Results flagged for a closer look

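The effect of stiff gel culture differed between aged and neonate cells for 13 genes, by a test of the difference itself (aged effect minus neonate effect on the log2(scaled TPM + 1) scale, limma, Benjamini-Hochberg). Cst3, the protease inhibitor cystatin C, gave -5.64: aged primary libraries stood at 30998, 45978 and 57723 scaled TPM and aged stiff gel libraries at 639, 962 and 1610, while neonate stiff gel (1154, 1445 and 1030) and neonate primary libraries (753, 919 and 1650) overlapped. Apoe, a lipid carrier of glia, gave -5.19, with 81, 237 and 181 in aged stiff gel against 944, 1821 and 1887 in aged primary libraries, and 561, 1129 and 321 against 153, 94.4 and 261 in neonate ones. Its order was opposite in the ages. Gpi (-5.26) was described with the called genes.

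Further genes with lower aged effects were Atp5o (-8.71), Mir3596d (-6.9998), Pik3r3 (-6.68), Dctn6 (-6.02), Atp6v0e2 (-5.48) and Fau (-5.11), and among entries of structural RNA Rmrp (-4.46), Rn18s (-3.36) and Rn5-8s (-3.23). Mir3596d overlaps Mirlet7f-1 on the opposite strand and rested on under 1 estimated read pair in every neonate library compared (0.153 to 0.673 in stiff gel and 0.09 to 0.24 in primary libraries). Kctd18, which overlaps Sgol2 on the opposite strand, had the opposite sign (4.41). Of the libraries behind this test, 1 aged primary and 1 aged stiff gel library held 14999 and 12371 genes above 0, against 5842 to 8075 in the other 4 aged ones. Without the libraries of broad detection 100 genes were called, 9 of them among the 13.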

How the results depend on the processing

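The count of 10 called genes (6 higher, 4 lower in stiff gel) depended on the fit, while no named gene reversed its direction past the threshold. It became 24 (0 higher, 24 lower) without scaling, 4 (0 higher) with quantile normalization, 62 (42 and 20) with voom, 204 (86 and 118) with array weights, 5 (2 higher) with the 6 libraries alone, 35 (27 lower) with the 9 neonate libraries, 20 (14 lower) without the 3 aged libraries of broad detection, and 6 (2 higher) with TPM scaled outside ribosomal RNA. Without a filter 3 were higher, and after thinning to equal pairs also 3. With 1 of the 6 libraries left out the count ran from 4 to 12, and that of higher genes from 1 to 8. Array weights called all 10 again, voom 8. For the difference between ages the 13 calls became 7 without scaling, 37 with voom, 49 with array weights, 100 without the broad libraries, 8 after thinning, and 4 to 17 with 1 library left out. Voom moved the median difference of all genes to 0.40. Ttr was called in 18, Fos in 17 and Ccl3 in 16 of 19 settings, against 14 for Sirt2, 11 for Rpl13, 10 for Gpi, 9 for Hba1, 8 for Cldn11, 7 for Fth1 and 4 of 17 for Rn5-8s. The cause was not tested. With a replicate block 11 genes were called (6 higher, 5 lower) and 13 between ages. Deviations of stiff gel and primary libraries of equal number were nearly uncorrelated (correlations 0.035, 0.053 and -0.060). At this depth noise in single libraries could hide a shared source, so whether the numbers pair libraries cannot be told. Depth limits the precision of genes that rest on 1 or a few estimated pairs per library.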
